A study of Mus musculus with 10 samples.

Results

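Single-library regions were places in the mouse genome where estrogen receptor alpha (ERα) was called as bound in exactly 1 of 8 chromatin immunoprecipitation libraries. They were chosen by the calls themselves, by merging the peaks of all 8 lists wherever peaks shared at least 1 bp and keeping the merged regions with a peak from a single list. There were 3350 of them among 8072 merged regions (41.5%). Of these, 2278 came from the arcuate nucleus, or 15.5% of all arcuate peaks, and 1072 from the anteroventral periventricular nucleus (AVPV), or 9.47% of all AVPV peaks. Each held a single peak.

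The study profiled ERα binding with sequencing in both nuclei, which carry the negative and the positive feedback of estrogen on gonadotropin release. All 8 libraries came from ovariectomised female C57BL/6 mice with a 2 cm Silastic implant of estradiol at 0.1 mg/mL, injected with estradiol benzoate at 0.05 mg/kg and sampled 28 h later, so no comparison with an animal without estradiol was possible. The arcuate and the AVPV each had 4 libraries made from pooled chromatin, and the labels do not say that the 4 came from separate pools. SDs and p-values therefore measured the spread between libraries, which may be technical. A peak list shows neither the share of cells bound nor the occupancy per cell, and the 2 cannot be told apart. It holds no RNA, so the labelled nucleus could not be checked against marker genes.

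ERα is a hormone-activated transcription factor. As a dimer it binds the estrogen response element, a palindrome of AGGTCA and its reverse complement separated by 3 bases, and it can also reach DNA through other factors, such as AP-1 or Sp1 at GC boxes. Most of its sites in other tissues lie in introns and between genes, away from promoters. In the hypothalamus it is known for the steroid feedback that runs through kisspeptin neurons.

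The letters below show examples of the response elements found in these regions, and then of summits without one. Of the 16 regions of highest rank, 2 per library, 4 held an element. All are 29 bases of the plus strand of GRCm38 (mm10), 5′ to 3′, in lower case. The first set is the 10 regions of highest rank that held a response element with at most 1 mismatch to its 12 fixed bases and lay within 50 kb of a coding gene start, out of 106 such regions. Capitals mark the element. The name is that of the gene with the nearest start.
Trp53i11, arcuate 2, chr2:93191463-93191491: gtgattcAGGGCACCCTGACCTccaagtg
Snorc, arcuate 3, chr1:87473013-87473041: tctaagcAGGTCACTGTGGCCTcacagag
Dpcd, arcuate 1, chr19:45586120-45586148: tgatgtcAGGCCACTCTGACCTtctccaa
Cnot6, arcuate 2, chr11:49714366-49714394: catctggAGGTCATTCTGACCCacaatca
Zfp804a, arcuate 1, chr2:82017356-82017384: acaagccAGGTCAAAATGACCTtgaaaac
Cfap161, arcuate 2, chr7:83807080-83807108: tcaagtcAGGGCAATCTGACCTcatgtcc
Gadl1, arcuate 3, chr9:115892975-115893003: cccagcaAGGTCATGATGACCCccaggag
Zxdc, arcuate 1, chr6:90398115-90398143: cctcacaAGGTCATGGTAACCTtcaaaag
Becn2, arcuate 4, chr1:175968897-175968925: gagtttgAGGTCAACCTGACCTacagaac
Brwd1, arcuate 1, chr16:96070546-96070574: atgttcaAGATCAACTTGACCTacatatc

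A second set is shown because the regions turn up again below. Pyroxd2 and Fosl2 were the highest ranked regions of the library arcuate 2, Pgr lay upstream of the progesterone receptor gene, and Cartpt near the gene of the peptide CART. Capitals again mark an element, here with up to 2 mismatches.
Pyroxd2, arcuate 2, chr19:42702059-42702087: ctgcgctGGGTCACTGTGCCCTtgtcttt
Fosl2, arcuate 2, chr5:32121025-32121053: gcacgggAGAACAGGGTGACCTgggcagc
Pgr, arcuate 2, chr9:8733010-8733038: taattggAGGTCACCATGACATgaagaac
Cartpt, AVPV 2, chr13:99886295-99886323: tttgggaAGGTCACTGAGACCTctctgca

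The last pair comes from promoters that held no element, centred on the peak summits in the libraries arcuate 4 and AVPV 3. Capitals mark CpG dinucleotides.
Smarcd1, arcuate 4, chr15:99702332-99702360: gggCGggtttccagtctgtggctcCGagc
Gsk3b, AVPV 3, chr16:38089410-38089438: CGgggCGctgggCGgtgtaagggctgggt

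Every library contributed, and unequally. Single-library regions numbered 597, 535, 275 and 871 in arcuate 1 to 4, and 117, 156, 495 and 304 in AVPV 1 to 4. The ranges of the nuclei overlapped, with arcuate 3 below both AVPV 3 and AVPV 4. Arcuate libraries averaged 570 ± 245 and AVPV libraries 268 ± 171 regions (SD over 4 libraries each), a difference that did not pass the exact permutation test (two-sided p = 0.0857, adjusted over the 11 tests to p = 0.118, smallest possible 0.0286). As a share of their own list these regions made up 14.6%, 13.8%, 8.46% and 25.1% of the arcuate lists and 4.94%, 6.14%, 14.8% and 9.94% of the AVPV lists. The share did not separate the nuclei either (exact permutation p = 0.200). With lists of equal length the differences between the nuclei were 43.5 regions and 1.84 points, against 301.5 regions and 6.56 points in the full lists.

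**Figure D1:**
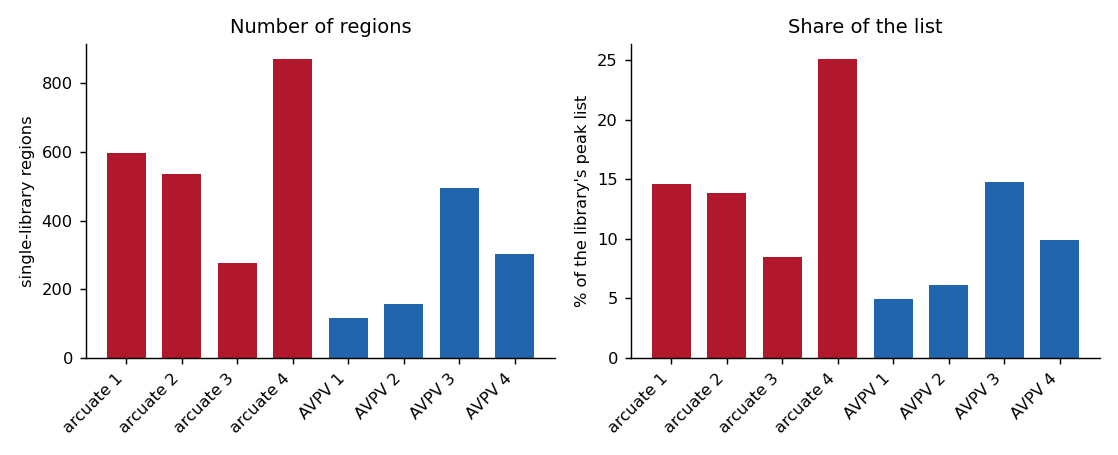
Number of single-library regions (left) and their share of the library's peak list in percent (right), 1 bar per library, arcuate in red and AVPV in blue. Arcuate 4 had the most regions (871) and the largest share (25.1%), and AVPV 1 the fewest (117) and the smallest (4.94%).

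Because a region was kept for being called once, its strength is a description and was not tested. Fold enrichment, the ratio of fragments at the summit to the local background, had a median between 4.57 and 4.89 in the 8 libraries, against 6.30 to 6.67 for peaks shared with another library. Ranked by fold within its own list, the median single-library peak stood between the 18.8th and the 23.9th percentile. Of the 3350 regions, 1872 (55.9%) fell in the lowest 25% of their list, 295 (8.81%) lay above the middle and 10 (0.299%) reached the highest 25%. The -log10 q, the strength of the call after correction for multiple testing, was under 3 in 515 regions (15.4%) and at least 10 in 205 (6.12%). Seen from the lists, 43.1% of peaks with -log10 q from 1.3 to 3 were called once, falling to 11.9% between 7 and 10 and 0.325% from 15 upwards.

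The number of fragments stacked at each summit, which the lists do not print, was recovered from fold and p for all 3350 regions. The median was 20, 18, 15 and 13 fragments in arcuate 1 to 4 and 19, 17, 15 and 17 in AVPV 1 to 4, over a local background of 1.77 to 2.90. Peaks of regions seen in 2 libraries had 15 to 21 fragments and those of regions seen in all 8 had 28 to 45. The median single-library peak thus stood 0 to 2 fragments below the median peak of a 2-library region in the same list. Of the 1141 regions seen in 2 libraries, 556 joined 2 arcuate libraries, 251 joined 2 AVPV libraries and 334 (29.3%) joined a library of each.

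Response elements were far more common at single-library summits than at displaced windows, and less common than at shared peaks. An element, allowing up to 2 mismatches and at most 100 bp from the summit, was present in 646 regions (19.3%), and 1.14% of all 201-bp tiles of the genome held one. In arcuate 1 to 4 the share was 31.8%, 35.7%, 17.5% and 2.76%, and in AVPV 1 to 4 it was 29.1%, 19.2%, 7.88% and 29.6%. Shared peaks of the same libraries ranged from 28.0% to 38.5%, and the same windows moved 5 kb along the chromosome from 0.808% to 2.56%. The single-library share exceeded the moved windows in 8 of 8 libraries, by 20.1 ± 12.05 percentage points (SD, n = 8, exact sign-flip permutation p = 0.00781, adjusted p = 0.0286). It lay below the shared peaks in 8 of 8, with a difference of -12.3 ± 8.22 points (SD, n = 8, exact sign-flip permutation p = 0.00781, adjusted p = 0.0286). In arcuate 4 the excess over moved windows was small, 2.76% against 2.18%.

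**Figure D2:**
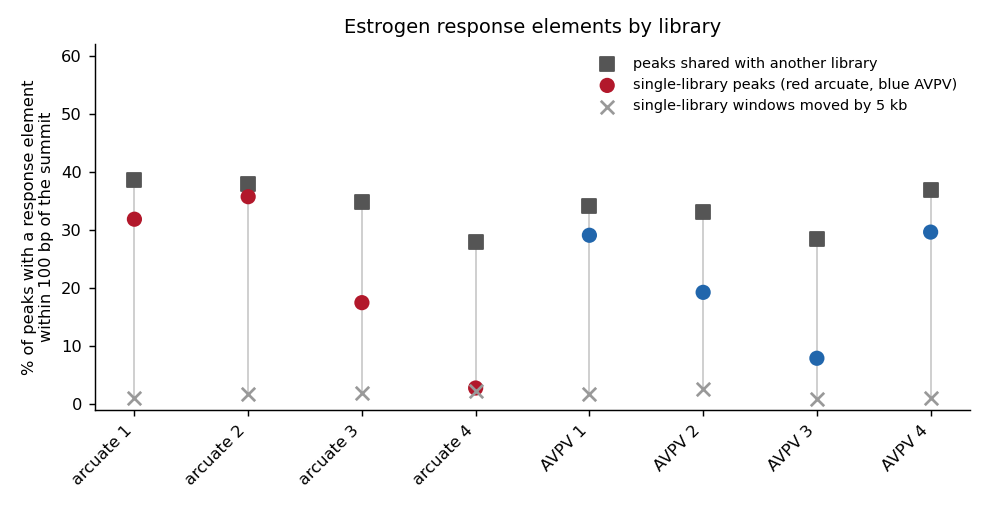
Share of peaks with an estrogen response element (up to 2 mismatches, at most 100 bp from the summit) in percent, by library. Circles are single-library peaks, squares the peaks of the same list shared with another library, and crosses the single-library windows moved by 5 kb; arcuate 4 (2.76%) sits at its moved windows (2.18%), and arcuate 2 (35.7%) close to its shared peaks (37.9%).

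Shared peaks are also stronger, so they were weighted to the -log10 q of the single-library peaks of the same library. The weighted share of shared peaks was 28.1% ± 2.87 against 21.7% ± 11.9 (SD, n = 8), and the difference of -6.37 points did not pass (exact sign-flip permutation p = 0.0859). Arcuate 1 and arcuate 2 were above their weighted shared peaks, 31.8% against 30.5% and 35.7% against 28.5%, and the other 6 libraries were below. Outside promoters the difference was larger and did pass, at -13.2 points (exact sign-flip permutation p = 0.0156), and it also passed for elements with at most 1 mismatch, at -4.59 points (p = 0.0312 by the same exact test). When every list was shortened to the same length, the unweighted difference was -7.55 points and no longer passed (exact sign-flip permutation p = 0.133).

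The share of single-library peaks with an element was larger among stronger calls. Between -log10 q of 1.3 and 3 it was 6.602% (34 of 515, 95% Wilson interval 4.76% to 9.08%), between 5 and 7 it was 21.7% (19.2% to 24.3%), and between 7 and 10 it was 32.6% (28.8% to 36.6%). Shared peaks of the same strengths held an element in 17.9%, 30.8% and 35.9%. From 10 to 15 the shares were 36.5% and 40.1%, with overlapping intervals. From 15 upwards the order was the other way, with 55.6% of 27 single-library peaks (37.3% to 72.4%) and 36.5% of shared peaks (35.5% to 37.5%). These intervals cover counting error only. Promoters made up 0% of those 27 peaks and 42.2% of the shared peaks of that class. Outside promoters the shares were 55.6% and 60.03%, so the reversed order was not seen there. The 27 came only from arcuate 1, arcuate 2 and AVPV 1, whereas shared peaks were pooled over all 8 libraries. The rise with strength was not seen in every library. In arcuate 2 the share reached 60.2% of the 88 regions with -log10 q of 8 or more, whereas in arcuate 4 it was 2.33%, 3.46% and 3.77% in the groups under 5, from 5 to 8 and above. In AVPV 2 these shares were 20.3%, 18.03% and 19.05%, and in AVPV 3 they were 5.58%, 10.7% and 10.3%.

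**Figure D3:**
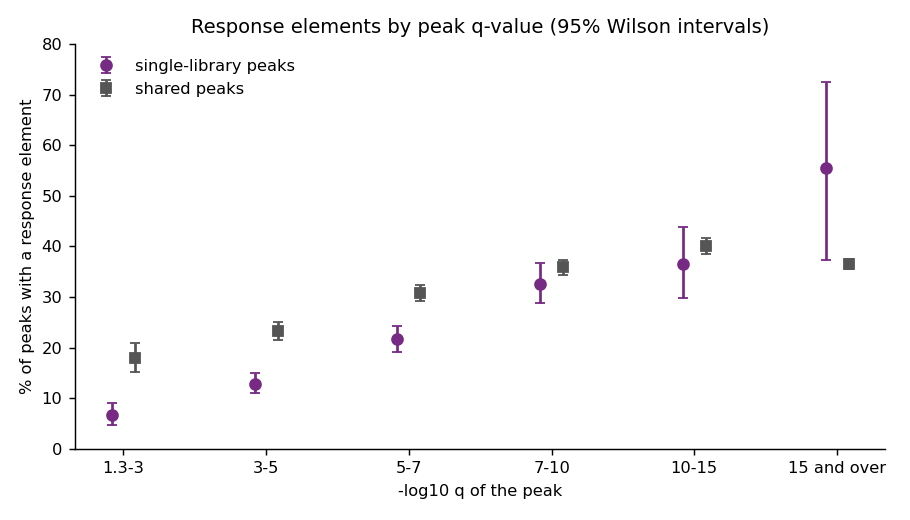
Share of peaks with an estrogen response element in percent, by the -log10 q of the peak, for single-library peaks (circles) and peaks shared with another library (squares), with 95% Wilson intervals. The single-library share runs from 6.602% in the weakest class to 36.5% in the class from 10 to 15 and 55.6% in the last, which holds only 27 single-library peaks.

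Elements close to the consensus were present too. Of the 646 regions with an element, 39 held it without a mismatch, 189 with 1 mismatch and 418 with 2, at a median of 26, 24 and 27 bp from the summit. At most 1 mismatch was found in 6.81% of single-library regions, 0.209% of the moved windows and 0.0798% of genome tiles. Arcuate 2 supplied 17 of the 39 perfect elements, arcuate 1 supplied 7, AVPV 4 supplied 5, arcuate 4 supplied 3, and the remaining 4 libraries supplied 1 or 2 each. Promoters held few of the elements, since 629 of the 646 lay elsewhere, with 296 in introns and 300 between genes.

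The ranking of regions by how many libraries called them gives the setting for these shares. An element was present in 19.3% of regions seen once, 31.5% of those seen in 2 libraries and 36.0% of those seen in 3, and then stayed between 33.5% and 39.8%. These shares pool the libraries. Arcuate 4 and AVPV 3 held 1366 of the 3350 regions seen once but 63 of the 646 with an element. Without them the mean single-library share was 27.1% over 6 libraries. The part of these libraries in the rise was not tested. Outside promoters the element share ran from 24.1% through 39.2% and 42.8% to 60.4% in regions seen in all 8. Promoters, here 1 kb before to 100 bp after a start site, made up 22.1% of single-library regions, 20.9% and 17.3% of those in 2 and 3 libraries and 48.03% of those in 8.

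**Figure D4:**
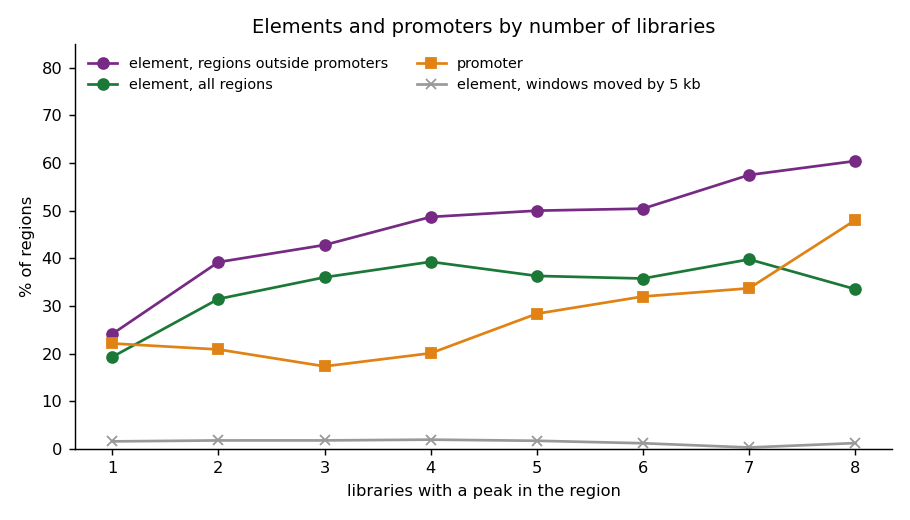
Share of merged regions in percent against the number of libraries with a peak there, for elements in all regions (green), elements in regions outside promoters (purple), promoters (orange) and elements in windows moved by 5 kb (grey). Outside promoters the element share runs from 24.1% at 1 library to 60.4% at 8, and the moved windows stay at or below 1.92%. Regions are pooled over libraries that differ in their element share.

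By place, 741 single-library regions were in promoters, 1152 in introns, 1084 between genes, 317 in exons and 56 at transcript ends. The promoter share was lower than that of shared peaks in 7 of 8 libraries, 21.9% ± 10.6 against 35.2% ± 4.50 (SD, n = 8), a difference of -13.3 points (exact sign-flip permutation p = 0.0156, adjusted p = 0.0344). The exception was AVPV 3, with 43.0% against 40.01%. AVPV 4 and arcuate 1 had the lowest shares, 8.22% and 11.7%. At matched -log10 q the promoter difference was -10.3 points (exact sign-flip permutation p = 0.0391, adjusted p = 0.0716), so it did not hold after adjustment. Over the 6 libraries without arcuate 4 and AVPV 3, left out after the values were seen, it was -13.9 points, with 6 of 6 below. The unadjusted exact sign-flip permutation p of 0.0312 is the smallest that 6 libraries allow. AVPV 3 was the only library above its matched shared peaks (43.0% against 33.2%). Leaving it out fixed both the count and the p, so they decide nothing further. Neither the promoter share (exact permutation p = 0.543) nor the element share (exact permutation p = 0.943) differed detectably between arcuate and AVPV libraries.

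The libraries arcuate 4 and AVPV 3 stood apart in the sequence around their summits, most of all the single-library ones. Mean GC content over 201 bp was 62.5% and 59.5%, against 45.6% to 55.4% in the other 6, and these windows held 13.97 and 13.75 CpG dinucleotides on average, against 3.52 to 8.91. A GC box (GGGCGG on either strand), the site of Sp1-type factors, was present in 39.3% and 34.5%, and in 7.87% to 18.2% of the others. Together they held 1366 of the 3350 regions but 63 of the 646 with an element, and 619 of the 833 regions above 65% GC. The median distance to a coding start was 1.18 kb in arcuate 4 and 0.423 kb in AVPV 3, against 14.6 to 80.4 kb. Shared peaks of these 2 libraries leaned the same way, with the highest GC content (57.2% and 55.3%), the highest GC-box share (25.8% and 24.0%) and the lowest element share (28.0% and 28.4%) of the 8. The part of base composition in these shares was not tested in a model.

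**Figure D5:**
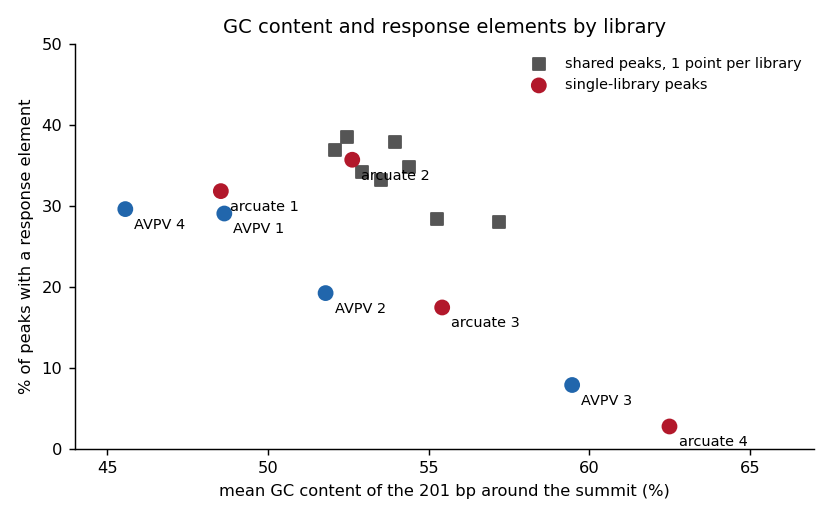
Share of peaks with an estrogen response element in percent against mean GC content of the 201 bp around the summit in percent, 1 circle per library for single-library peaks (red arcuate, blue AVPV) and 1 square per library for shared peaks. Arcuate 4 (62.5% GC, 2.76%) and AVPV 3 (59.5% GC, 7.88%) lie apart from the other 6 libraries.

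Without arcuate 4 and AVPV 3, left out after the values were seen, the remaining 6 libraries gave 27.1% ± 7.23 of single-library peaks with an element, against 35.9% ± 2.18 of shared peaks and 1.63% ± 0.587 of moved windows (SD, n = 6). All 6 were below their shared peaks and above their moved windows, with the smallest p that 6 libraries allow (exact sign-flip permutation p = 0.0312 for each). Both orders held in all 8 libraries, so these counts and p-values were fixed in advance and decide nothing further. At matched -log10 q the difference was -2.30 points (exact sign-flip permutation p = 0.344). Among windows of at most 55% GC in all 8 libraries, chosen as a comparison after the values were seen, the share was 30.3% ± 11.8 against 52.6% ± 1.86 (SD, n = 8). That difference of -22.3 points was present in 8 of 8 libraries (exact sign-flip permutation p = 0.00781, adjusted over 3 added tests to p = 0.0117). Unlike the matched difference, it was not weighted by -log10 q, and it again included arcuate 4 (8.54% against 52.0%) and AVPV 3 (20.1% against 49.5%). Above 55% GC, where the difference was not tested, the shares were 5.54% ± 5.68 and 10.4% ± 2.01 (SD, n = 8), and arcuate 2 was above its shared peaks, 15.8% against 13.3%.

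Other motifs were searched in the same windows, on both strands, and adjusted over the 6. GC boxes were present in 22.3% of single-library regions, 2.48% of moved windows and 1.93% of tiles, and exceeded the moved windows in 8 of 8 libraries (19.1% ± 11.6 against 2.21% ± 1.15, SD, n = 8, exact sign-flip permutation p = 0.00781, adjusted p = 0.0469). The single-library windows were also richer in GC than the moved windows in 8 of 8 libraries, 53.1% ± 5.78 against 44.2% ± 1.05 (SD, n = 8, exact sign-flip permutation p = 0.00781), and the part of this in the GC-box share was not tested. Against shared peaks, with 20.2% ± 3.26, GC boxes were higher in 2 of 8 libraries (exact sign-flip permutation p = 0.727). AGGTCA alone, which overlaps the full element, was in 28.2% against 12.03% of moved windows and 11.05% of tiles, higher in 7 of 8 libraries without passing the adjustment (exact sign-flip permutation p = 0.0234, adjusted p = 0.0703). The AP-1 site TGANTCA was in 5.88%, against 6.27% of moved windows and 5.97% of tiles. The forkhead site TGTTTAC (2.00% against 2.57%), the CCAAT box (19.6% against 24.2%) and the homeodomain site TAATTA (3.40% against 5.55%) were no more frequent than in moved windows, with 3.01%, 29.7% and 7.24% of tiles.

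Repeats were more common than at shared peaks and less common than in the genome. Bases masked as repeats made up 13.1% ± 5.97 of the 201 bp around single-library summits and 7.66% ± 0.478 around shared ones (SD, n = 8), higher in 8 of 8 libraries (exact sign-flip permutation p = 0.00781, adjusted p = 0.0286), and 36.4% of the genome. In arcuate 4 the share was 27.6% and in the other 7 libraries 8.51% to 12.6%. There 193 of 871 regions (22.2%) were over 90% masked, with a median GC content of 63.2%, 191 of them in introns or between genes and none with an element. Without arcuate 4 the difference between single-library and shared peaks was 2.999 points, against 5.47 points over all 8 libraries. Since every library had the same sign, the exact sign-flip permutation p of 0.0156 without arcuate 4 was fixed in advance. It decides nothing further.

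Single-library regions lay at a median of 104.3 kb from the nearest region seen in 2 or more libraries, and the same windows moved by 50 kb at 104.3 kb. The close end differed. A shared region was within 10 kb of 12.002% ± 4.42 of single-library regions and 6.32% ± 1.13 of moved windows (SD, n = 8), higher in 7 of 8 libraries, with AVPV 1 equal at 4.27% (exact sign-flip permutation p = 0.0156, adjusted p = 0.0344). Joining peaks within 200 bp reduced this difference from 5.68 to 2.27 points, which did not pass (exact sign-flip permutation p = 0.125). Merging by windows around summits raised it to 18.8 points, and over the 6 libraries without arcuate 4 and AVPV 3 it was 5.26 points (exact sign-flip permutation p = 0.0625). Pooled over regions, 13.1% of single-library regions had a shared region within 10 kb. Regions seen in 2 or in 8 libraries had another shared region that close in 12.1% each, so this closeness was not particular to single-library regions. Within 1 kb there were 232 single-library regions (6.93%) against 34 moved windows (1.01%), and 4.12% and 3.76% of regions seen in 2 and 8 libraries. Those 232 held an element in 1.72%, against 18.8% of single-library regions at 1 to 10 kb and 21.6% beyond 100 kb. The distance classes differed in library and place. Of the 232, 82 came from arcuate 4 and 49 from AVPV 3, the libraries with the lowest element shares. Promoters made up 33.6% of the 232, 15.4% at 1 to 10 kb and 18.8% beyond 100 kb. The part of library and place in this contrast was not tested. Another merged region, of the same or of other libraries, stood within 200 bp of 211 regions (6.30%). Those beside a region of another library missed the merging rule narrowly. At a gap of 0 bp there were 7. Those that adjoined a shared region lay in the promoters of Cct7, a chaperonin subunit gene (AVPV 3, beside a region of 6 libraries), and Dhodh, a gene of pyrimidine synthesis (AVPV 2, beside a region of 8), and in an intron nearest to Mrps35 (arcuate 4, beside a region of 3).

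The highest ranked regions of the libraries differed in kind. In arcuate 2 they lay 50.7 kb from Pyroxd2, at 10.5-fold and the 86.0th percentile, and 15.4 kb from Fosl2, an AP-1 subunit gene, at 9.72-fold and the 83.7th, both with an element. In arcuate 3 the first was in an intron of Snorc, at 8.37-fold with a 1-mismatch element 2 bp from its summit, and the second, far from Arid1b, was 80.1% repeat. Those of arcuate 1 lay in an intron of Rmnd5a nearest to Cd8a and 191.6 kb from Plekhb2, at 8.47-fold and 8.21-fold and without an element. In arcuate 4 both were promoters, those of Smarcd1, a chromatin remodelling subunit gene, and Tor1a, the torsin gene, at 8.66-fold with 77.1% and 74.1% GC.

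The AVPV libraries showed the same mixture. AVPV 3 was led by a promoter region in Gsk3b, a kinase gene, at 7.51-fold and 72.6% GC, and the promoter of Tfap4, a transcription factor gene, at 7.20-fold. The Gsk3b summit lay 423 bp downstream of the nearest coding start, so its promoter label came from another annotated start. AVPV 1 had its highest in an exon of Mbd2, a methyl-CpG binding protein gene, at 10.5-fold and the 80.5th percentile, and next a region 271.8 kb from BC052040 at 7.84-fold. AVPV 2 had regions 102.9 kb from Tmem121 and 442.9 kb from Ercc4, at 7.23-fold and 6.94-fold. None of these AVPV 1 to 3 regions held an element. AVPV 4 had the promoter of Tex21 and a region 24.4 kb from Tgfa, an epidermal growth factor receptor ligand gene, each at 7.66-fold, the second with a 2-mismatch element in a window that was 92.5% repeat.

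The 10 regions printed first above, ranked by fold percentile and not by the element, came from arcuate libraries, 4 from arcuate 1, 3 from arcuate 2, 2 from arcuate 3 and 1 from arcuate 4. Arcuate libraries held 453 of all 646 single-library regions with an element. The fold of the 10 ran from 8.37 at Snorc to 6.13 at Becn2, and their percentile from 74.4 at Trp53i11 to 53.7 at Brwd1. The elements of Zfp804a and Becn2 matched every fixed base, 5 and 61 bp from the summit. Perfect elements of lower rank, left out of this set, included AVPV regions at Cdc42, Rab2a and Stag1, 24.8, 33.0 and 29.5 kb from the start. Most lay in introns, of Trp53i11, Snorc, Fbxw4, Zxdc and Brwd1, and the Becn2 region lay in an intron of Pld5 where 80.6% of bases were repeat. Cnot6, the gene of a deadenylase, was the nearest start to its region at 1.67 kb. The distance to a shared region ran from 3.496 kb at Trp53i11 to 404.3 kb at Cfap161.

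Gene lists were read by how many of the regions within 20 kb of a member were seen once, and over all genes that was 1707 of 4089 (41.7%). Kisspeptin and its partners had 0 of 2. Estrogen target genes had 8 of 16, at 4 genes and none with an element: 3 at Greb1, an estrogen-induced gene, 3 at Pgr, and 1 each at Fkbp5, a receptor co-chaperone gene, and Fos. The strongest was in a Greb1 intron in arcuate 1, at 7.44-fold and 7.16 kb from a region of 8 libraries. Steroid receptors and coregulators had 2 of 4, at the corepressor gene Tle3 and at Nr5a1, the gene of SF-1. Arcuate peptides had 2 of 6, namely the Cartpt region of AVPV 2, at 4.62-fold with a 1-mismatch element, and a region near Gal, the galanin gene, in AVPV 3 at 3.85-fold.

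Preoptic and AVPV genes had 3 of 8, that same Gal region with Cckar in arcuate 1 and Vgf in arcuate 3, and glial markers had 1 of 4, at Mbp. Potassium channels had 8 of 19. Of these 8, 7 were from arcuate libraries, as were 2278 of all 3350 single-library regions. An element was held by 3, those at Kcng2, Kcnq3 and Kcnab1. Another 3 lay in promoters, of Kcnh8, an ether-a-go-go family channel gene, Kcnd2, an A-type channel gene, and Kcnk10, a leak channel gene, with 67.7%, 69.7% and 72.6% GC. Sodium and calcium channel symbols had 2 of 10. These were an intron of Scn3a at 6.41-fold with an element and a promoter region 105 bp downstream of the Scnm1 start. Scnm1 encodes a splicing factor and no channel. Glutamate and GABA receptors had 2 of 3, at Grik4 and Grin2b. Ribosomal protein symbols had 19 of 44, 13 in promoters and none with an element, among them Rpl24 at 5.32-fold, Rps2 at 5.39-fold and Rpl29 at 4.99-fold. That last list also caught Rps6ka2, a kinase gene, and Rps6kl1, a kinase-like gene, so 2 of the 19 were not at ribosomal protein genes. The Rpl29 region lay 0.134 kb from a region of 8 libraries and became part of it when peaks within 200 bp were joined. Read against 41.7%, the shares of these lists rest on few regions and set none of them apart.

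The progesterone receptor gene, a classic estrogen target, was nearest to 6 single-library regions from 5 libraries and to 7 shared ones, 4 of them seen in all 8 libraries. It was picked out after its values were seen. The strongest was in arcuate 2 at chr9:8732931-8733303, 166.8 kb from the start, at 8.88-fold and the 79.8th percentile, with the 1-mismatch element printed above. Those of arcuate 1 and AVPV 1 lay 153.6 and 88.9 kb away at 4.11-fold and 3.53-fold, the second with a 2-mismatch element. The other 3 lay in an exon of Pgr, 0.612 and 2.09 kb from the start in AVPV 3 and 1.61 kb in arcuate 4, without an element and with 63.2%, 73.6% and 71.6% GC.

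Some regions were packed together. Neighbours within 100 kb formed 14 groups of at least 5, holding 108 regions, also read after the values were seen. The largest spanned 183.3 kb of chromosome 6, nearest to Ezh2, a histone methyltransferase gene, Pdia4 and Zfp398. It held 27, of which 24 came from arcuate 4, and 18 shared regions lay in the same span. Of the 27, 0 had an element, against 2.76% of all single-library regions of arcuate 4. The median local background of the 27 was 12.9 fragments, above the 1.77 to 2.90 of the libraries. A group of 10 on chromosome 8 nearest to Gm51573 held 9 from arcuate 4 over a background of 10.5, with no shared region in its span. A group of 10 on chromosome 9 nearest to Alkbh8 was 98.8% repeat over a background of 158.5 fragments, and its highest summit held 251. Its span also held 10 shared regions. Chromosome Y carried 10 merged regions, of which 6 were called once and 4 were shared. A single group nearest to Gm21838, at chrY:90743420-90841539, held 5 of those 6 and all 4 shared regions. The labels give female animals, and the origin of the reads in these regions was not tested.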

How the data were processed

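ERα ChIP-seq peak lists of 4 arcuate and 4 AVPV libraries were used. The authors aligned single-end reads to mm10 and called peaks per library at a 5% false discovery rate, and the submitters' processing notes name Bowtie2 2.5.0 and MACS2 2.2.7.1. The deposited columns were fold enrichment (a ratio over local background), -log10 p and -log10 q, and a score that was not used. The lists hold no read counts, so depth per library is unknown, and an uncalled site is not shown to be unbound.

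The members and gene lists were chosen with earlier results of these data known. Peaks sharing 1 bp were merged. Elements, masked bases, place and nearest coding start came from the GRCm38 sequence and its RefSeq annotation. An element is AGGTCA, 3 free bases and the reverse complement. Place was taken at the summit, in the order promoter, transcript end, exon, intron, between genes. Matching used 12 bins of -log10 q. Fragments at the summit were solved from fold and the Poisson p within 0.01 of -log10 p (25910 of 25982 peaks).

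Libraries were compared by exact permutation over 70 assignments and single-library with shared peaks by sign flips over 8 libraries, all two-sided, with Benjamini-Hochberg adjustment over 11 tests. Named genes were the 2 regions of highest fold percentile per library, the first 10 with an element of at most 1 mismatch within 50 kb of a start, and up to 4 per gene list within 20 kb. Other merging rules, cutoffs, element and promoter definitions, autosomes only and leaving out each library were tried. Python 3.11.15, numpy 2.4.6, pandas 2.3.3 and scipy 1.17.1 were used, and the merging, element search and tests were tested on simulated data.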

Additional observations from a re-analysis of the deposited data

Results flagged for a closer look

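In 2 measures arcuate 4 lay further from the other arcuate libraries than Dixon's 95% limit for 4 samples allows. Its single-library peaks had 27.6% of bases masked as repeats, with 12.6% in the next library, and 22.2% of them were over 90% masked, with 2.85% in the next. Chance passes this limit in about 1 of 20 groups, and 32 groups of 4 libraries were examined.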

How the results depend on the processing

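No result past the threshold (unadjusted p under 0.05) changed direction. The unweighted element deficit against shared peaks was lost only with lists of equal length (-7.55 points). At matched -log10 q the element difference passed with merging by windows around summits (-12.3 points), at most 1 mismatch (-4.59) and outside promoters (-13.2). The matched promoter difference was lost with summit windows (-7.10), fold above 5 (-4.30), lists of equal length (-7.08) and the wider promoter (-9.91), and without arcuate 2, arcuate 3, arcuate 4, AVPV 1 or AVPV 2, in a range of -11.4 to -8.52 over the 8 libraries left out. The excess within 10 kb was lost on joining peaks within 200 bp (2.27) and, chosen after seeing the data, without arcuate 4 and AVPV 3 (5.26), and it was 18.8 with windows around summits. The 3350 regions became 2143 at fold above 5 and 1874 with lists of equal length, and 2749 to 3357 with a library left out. The mean of the library medians of percentile in the full list was 24.9 at -log10 q of at least 3, 38.7 at fold above 5 and 40.1 with lists of equal length.

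The replicate numbers did not pair the samples: deviations of same-numbered arcuate and AVPV libraries correlated at 0.03, 0.01, 0.04 and -0.16. With the replicate block the arcuate against AVPV differences were 301.5 regions, 6.56 points in the share of the list, 0.491 points in the element share and -5.91 points in the promoter share, in a test that 4 pairs are too few to pass. With lists of equal length the first 2 were 43.5 regions and 1.84 points, and with a library left out 220 to 458 regions and 3.75 to 10.3 points, lowest without arcuate 4 and highest without arcuate 3. Of the 48 named regions, 44 were still single after joining peaks within 200 bp. Those of Greb1 (arcuate 1), Gsk3b and Pgr (arcuate 4) then spanned 2 libraries and that of Rpl29 spanned 8. The lists give no depth, so a site missed for few reads cannot be told from an unbound site.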
